A study of Mus musculus with 2 samples.

Results

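The contigs of at least 5000 nt in the mouse lung transcript map are described here. A contig is an unbroken stretch of genome that reads covered on 1 strand, and its length is its end minus its start in the deposited contig list, which is on mm9. By that rule 1691 of 795937 contigs were long. Length was the only property used to choose them, so strand, position, level, splicing and annotation were not part of the rule, although length and level come from the same reads. Polyadenylated RNA over 200 nt was sequenced as stranded paired reads of 76 nt from lung of C57BL/6J mice aged 8 weeks, with spike-ins added. The 2 libraries, replicate 1 and replicate 2, form 1 untreated wild-type group, and each was made from pooled male and female littermates. The labels name 1 donor record for both but 2 tissue samples, so the spread between them may be technical in part. The contig list gives 1 value per contig for the series, so no replicate error exists for a contig level, and no p-value is given anywhere.

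Unbroken coverage of a long stretch can come from several kinds of RNA. A mature messenger RNA gives a contig no longer than 1 of its exons, and the longest exons are usually the last ones, which hold the 3′ untranslated region (3′ UTR), or a few giant coding exons. Long noncoding RNAs such as Malat1 and Neat1 are transcribed as very long unspliced exons that stay in the nucleus. Introns join exons into 1 contig where unspliced precursor RNA, or a mature RNA that keeps an intron, is sampled deeply enough to leave no gap. Reads also continue past a gene's annotated 3′ end where RNA is cleaved further downstream, or before the downstream RNA has been degraded.

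The long contigs were few and deep. They made up 0.212% of contigs, spanned 11407945 nt, which is 3.85% of all contig bases, and held 22.7% of all read bases in contigs, or 20.3% without the 2 contigs of highest level, which have no named gene. Their median length was 6133 nt, with the middle 50% between 5454.5 and 7420.5 nt. Of the 1691 contigs, 913 reached 6000 nt, 304 reached 8000 nt, 101 reached 10000 nt, 9 reached 15000 nt and 3 reached 20000 nt. The list states no unit for the level and does not say whether both libraries were pooled. From the values, the level was proportional to another column divided by length, and that column is read here as the sum of read bases. On this reading a level of 1 stood for a mean depth of 17.4 reads per base. The median level of the long contigs was 7.39, a median depth of 129 reads per base, and levels ran from 0.566 to 3230. Contigs from 2000 nt up to that minimum had a median level of 2.86, those from 1000 up to 2000 nt 0.829, those from 200 up to 1000 nt 0.217, and shorter ones 0.143. Just below the length minimum lay contigs of Uhrf1bp1 (4996 nt, level 3.84) and Snrk (4998 nt, level 26.8), and just above it contigs of Atp5j (5000 nt, level 11.5) and Plxna1 (5001 nt, level 22.3).

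**Figure D1:**
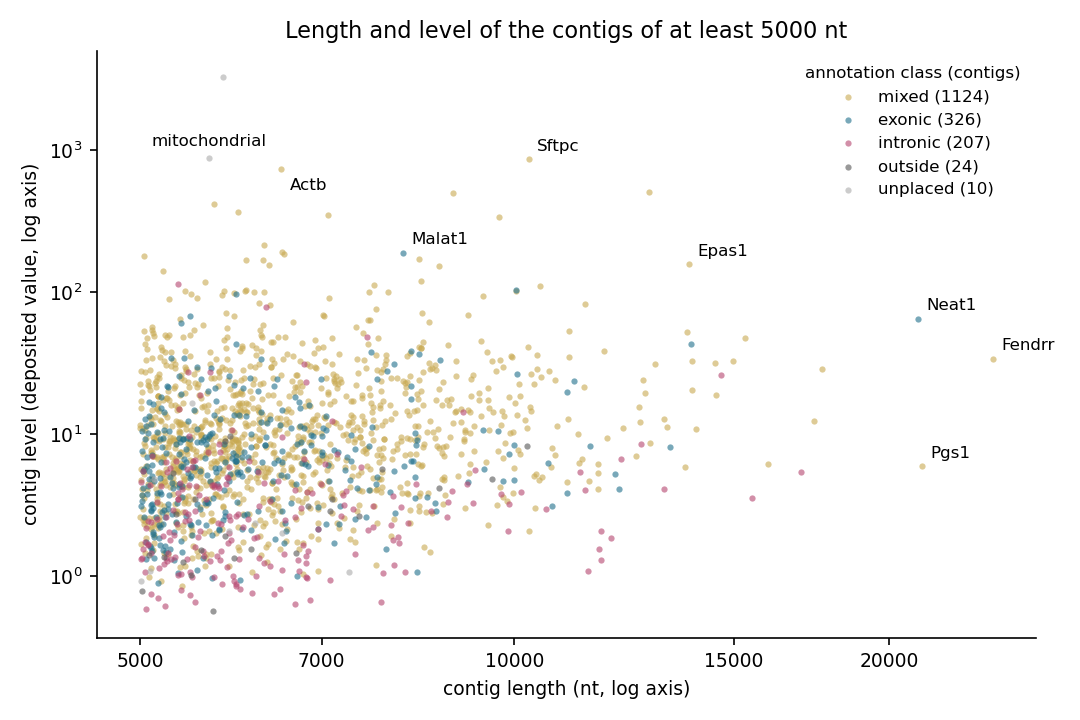
Level of each of the 1691 contigs of at least 5000 nt (vertical, deposited value, log axis) against its length (horizontal, nt, log axis), 1 point per contig, coloured by annotation class. Most points lie under 10000 nt, and the longest contigs, of Fendrr, Pgs1 and Neat1, are not the ones of highest level.

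The library of replicate 1 held 48234788 expected counts over genes and that of replicate 2 held 44182856. Each of the 18 lung epithelium genes (alveolar genes and the airway club cell genes Scgb1a1 and Cyp2f2), the 20 lung endothelium genes and the 20 mesenchyme and matrix genes listed reached 1 TPM in both. Replicate 1 also held RNA of squamous epithelium and skeletal muscle, tissues that border the lung: all 19 listed genes were at 1 TPM or more there against 4 in replicate 2. Their summed level was 7168 TPM in replicate 1 and 74.2 TPM in replicate 2. In replicate 2, 6 of the 19 were listed at 0: Krt6a, Krtdap, Dsg3, Myh4, Myh8 and Tnnc2. This list was drawn up with earlier results of these data known. The 16 listed blood and immune genes summed to 16963 TPM in replicate 1 and 39453 TPM in replicate 2, and 4 of them were 2-fold apart. The hemoglobin genes Hba-a1 and Hbb-bs were higher in replicate 2, and the neutrophil genes S100a8 and S100a9 in replicate 1.

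The deposited contigs carry no gene names and the annotation used here, GENCODE M21, is on another build, GRCm38. A contig was therefore tied to a gene by structure: the introns seen in the deposited mm9 junction list had to match annotated introns of 1 gene, on the same chromosome and strand, in exact length and spacing, with at least 3 such introns. In this way 1503 contigs were tied through junctions touching them and 178 through the nearest matched introns on both sides, while 10 could not be placed. A gene could be named for 1657 contigs (98.0%), in 1501 distinct genes. Of neighbouring long contigs within 1 Mb of each other, 1210 of 1237 kept the same spacing in both builds. The named gene was protein coding for 1611 contigs and of another type for 46.

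Placed against annotated exons, most long contigs were neither pure exon nor pure intron. A contig was classed as exonic where at least 80% of its bases fell in exons on its strand, as mixed from 10% to 80%, and as intronic below 10% where at least 50% of it lay in introns. By this measure 326 contigs were exonic (19.3%, 95% Wilson interval 17.5 to 21.2), 1124 mixed (66.5%, 64.2 to 68.7), 207 intronic (12.2%, 10.8 to 13.9), and 24 lay outside genes (1.42%, 0.956 to 2.10). Contigs of at least 2000 but under 5000 nt were divided more evenly, with 26.1% exonic, 43.7% mixed, 26.0% intronic and 3.19% outside among 12747. Class depends on contig length by construction, as a longer contig fits within fewer single exons or introns. The unlike shares were therefore not read as a difference in the RNA. The intervals cover counting error only, and contigs of the same gene are not independent. By bases the 2 length classes were close: exons held 45.1% of the placed long contigs and introns 48.9%, against 44.7% and 49.6% in the shorter class. Mixed contigs had a median level of 9.49, exonic ones 6.05, and intronic ones 2.49.

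**Figure D2:**
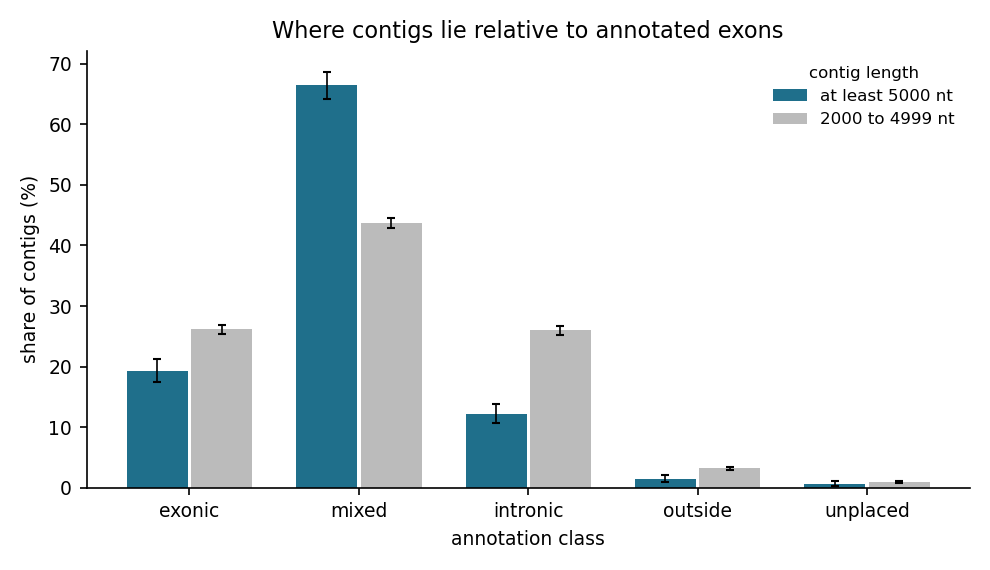
Share of contigs (%, vertical, from 0) in each annotation class for contigs of at least 5000 nt and for contigs of at least 2000 but under 5000 nt, with 95% Wilson intervals as bars. Mixed contigs are 66.5% of the long ones and 43.7% of the shorter ones, and intronic contigs 12.2% and 26.0%.

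The 3′ ends of transcripts matter for these contigs, because many stop at one and others run through it. The last 30 bases of 9 annotated transcripts are shown for genes whose contigs do either, with the cleavage signal that precedes a poly(A) tail, AATAAA, in capitals where the 30 bases hold it. They are transcript sequences from GENCODE M21, written 5′ to 3′, with their GRCm38 position. Those of Eef2, Plec, Xiap and Ago2 lie where a contig stopped, those of Sftpc, Sftpd and Malat1 lie inside a contig that went on, and those of Neat1 are the ends of its short and long forms.
Eef2, chr10:81182469-81182498, plus strand: ggagtAATAAActacagtggttgatccaca
Plec, chr15:76170976-76171005, minus strand: ccgcccctcAATAAAagcaattccaacctt
Xiap, chrX:42109627-42109656, plus strand: aagacttattcAATAAAgcactattcttta
Ago2, chr15:73095844-73095873, minus strand: AATAAAattcctcgtatttacagctgccta
Sftpc, chr14:70520953-70520982, minus strand: atcctatcacaaaagAATAAAgcagcctga
Sftpd, chr14:41172214-41172243, minus strand: gccaacatcctAATAAAaggtgtatagctt
Malat1, chr19:5795690-5795719, minus strand: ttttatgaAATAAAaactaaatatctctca
Neat1 short form, chr19:5842307-5842336, minus strand: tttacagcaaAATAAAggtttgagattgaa
Neat1 long form, chr19:5824708-5824737, minus strand: gagaacgaacgtgagcaggaaaaagcaaaa

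The 3′ edges of the contigs clustered at transcript ends. For each gene the main transcript was the one of highest mean TPM, and 1637 contigs had one. Of these, 341 contigs (20.8%) ended within 50 nt of the main transcript's 3′ end: 107 of 324 exonic, 232 of 1113 mixed and 2 of 200 intronic contigs. The Plec contig ended 7 nt after its transcript, the Xiap contig 36 nt after, the Eef2 contig 86 nt after, and the Ago2 contig 28 nt before. Among the genes of these 341 contigs, 85.6% of main transcripts held AATAAA or ATTAAA in their last 30 bases, searched on the transcript's own strand. Among all 13778 detected genes with a main transcript the share was 60.2%, and among all 1483 tied genes 63.5%. Where the contig instead ran at least 1000 nt past the main transcript's end, for 324 contigs, the share was 38.3%. These are shares of letters in annotated sequences and were not tested; the main transcript can be a truncated or retained-intron form.

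**Figure D3:**
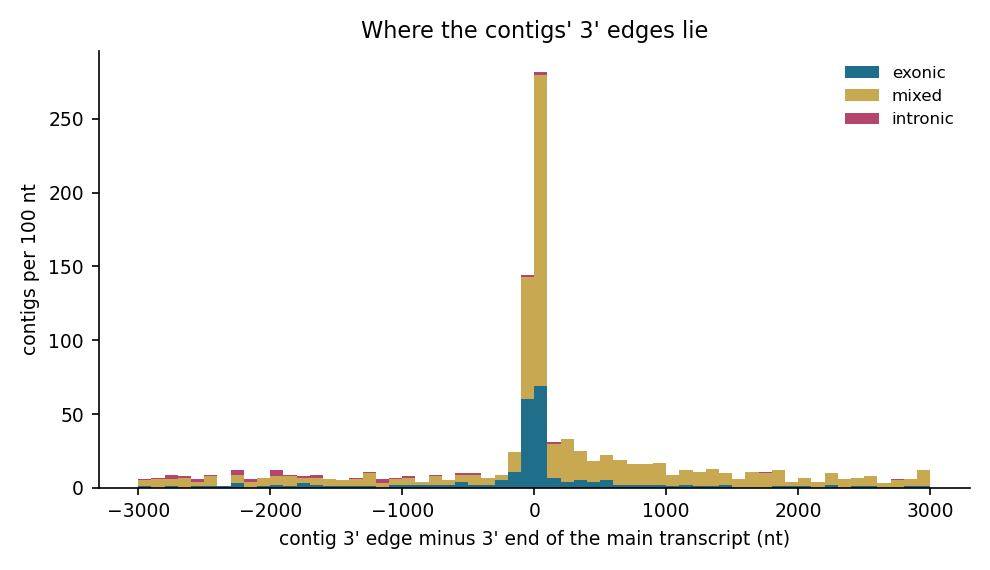
Number of long contigs (vertical, per 100 nt) by the distance of their 3′ edge from the 3′ end of the gene's main transcript (horizontal, nt, positive where the contig goes further), stacked by class. The 1028 contigs within 3000 nt are shown; 404 end further upstream and 205 further downstream, and the peak is at 0.

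Noncoding RNA genes supplied 2 of the 3 longest contigs. The longest contig, 24254 nt at level 33.8 (mm9 chromosome 8, 123578125 to 123602378, minus strand), lay in Fendrr, a long noncoding RNA of mesoderm and lung mesenchyme. Only 13.1% of its bases were annotated exon and 84.2% were intron, and it held 101 distinct introns of the junction list with 3982 reads between them. Fendrr stood at 404.5 TPM in replicate 1 and 307 TPM in replicate 2. The contig of the neighbouring gene Foxf1, a forkhead transcription factor of lung mesenchyme on the opposite strand, began 4238 nt beyond it.

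The Neat1 contig was different in kind. Neat1 is the scaffold RNA of nuclear paraspeckles, and its contig of 21094 nt at level 64.9 (chromosome 19, 5824718 to 5845811, minus strand) was 98.4% exon and a single exon. It ended 10 nt short of the end of the long form, which is annotated at 20771 nt, and so ran 17589 nt past the end of the short form of 3004 nt. The deposited transcript values gave the long form 33.2 TPM in replicate 1 and 20.8 TPM in replicate 2, and the short form 550 and 296 TPM. As the short form lies wholly within the long one, reads over it cannot be assigned to either with certainty. Neat1 as a gene had 95027 counts in replicate 1 and 55958 in replicate 2.

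Malat1, an abundant nuclear RNA of splicing speckles, had a contig of 8136 nt at level 189 (chromosome 19, 5794536 to 5802671, minus strand). It ran 1154 nt past the annotated end. Malat1 was higher in replicate 1, with 726 TPM against 374 TPM. Of the 30 long noncoding RNA genes listed, 24 had a deposited value, 17 reached 1 TPM in both libraries and 5 had a long contig. Among all genes spanning at least 5000 nt, 3.10% at 1 to 10 TPM and 14.9% at 10 to 100 TPM had a long contig. The list was not matched to these genes on span or level. Besides Malat1 and Neat1, the 5 included Peg13 (6191 nt, level 29.5), Airn (5590 nt, level 3.07) and Mir22hg (5038 nt, level 5.23). Peg13 is the one of the 5 with no deposited gene value. Airn, the antisense RNA of an imprinted cluster, had its contig in a gene at 11.1 TPM in replicate 1 and 9.35 TPM in replicate 2.

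Among the 326 exonic contigs, 253 touched only 1 annotated exon. In 211 at least 50% of the contig was 3′ UTR, in 43 at least 50% was coding sequence, 7 lay in noncoding genes, and in 65 no part reached 50%. The 3′ UTR contigs had a median length of 5840 nt and a median level of 5.75. The longest was 13347 nt in Tmem245, at level 8.10, with 99.2% of it exon. Zfp704 followed at 12146 nt and level 4.12. Ago2, the Argonaute protein that carries out miRNA-directed cleavage, had 11498 nt at level 8.21 and stood at 14.5 TPM in replicate 1 and 11.7 TPM in replicate 2.

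Of the 54 genes listed for a long 3′ UTR, 48 reached 1 TPM in both libraries and 17 had a long contig. Of their 18 contigs, 14 were exonic. Among all genes with an exon of at least 5000 nt, 19.5% at 1 to 10 TPM and 40.2% at 10 to 100 TPM had a long contig. The list was not matched to these genes, so its count was not read as a trait of the list. Bmpr2, the bone morphogenetic protein receptor linked to pulmonary hypertension, had 7749 nt at level 24.5 that stopped 1399 nt before its annotated end. Tnrc6b, a partner of Argonaute in silencing, had 7936 nt at level 3.93, and the osmotic stress factor Nfat5 had 8358 nt at level 9.01. Zbtb20 had 2 exonic contigs, of 8513 and 5031 nt, at levels 3.58 and 4.18. The median of the 48 detected genes, with or without a long contig, was 15.6 TPM. That was near the 14.4 TPM of all 13855 genes detected in both libraries. Genes with a long contig, a different set, had a median of 47.3 TPM.

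Giant coding exons formed the next group. Of the 60 genes listed for one, 36 reached 1 TPM in both libraries and 17 had a long contig, not all of them among the 36. Of their 21 contigs, 13 were exonic, a class that counts untranslated as well as coding exon bases. Among all genes with an exon of at least 5000 nt, 19.5% at 1 to 10 TPM and 40.2% at 10 to 100 TPM had a long contig. This list was not matched to those genes either. Plec, the cytoskeletal linker plectin, had 13857 nt at level 43.2 across 7 exons. Srrm2, a spliceosome-associated protein, had 10026 nt at level 103, and Son, a splicing cofactor of nuclear speckles, had 5976 nt at level 97.3 in a single exon. Ahnak, whose protein is encoded almost wholly by 1 exon, had 3 contigs of 11019, 10047 and 5803 nt. The 2 exonic ones stood at levels 26.5 and 12.7, and the mixed one, 85.4% intron, at 4.59. Usf3, which is not on the list, had 12051 nt at level 5.26, all of it exon, with 6407 nt coding and 5644 nt 3′ UTR.

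Mixed contigs included the highest levels of any named gene. Among the 20 contigs of highest level, that of Sftpc, which encodes surfactant protein C of alveolar type 2 cells, reached 863 (chromosome 14, 70914545 to 70924816, minus strand, 10272 nt). Actb, cytoplasmic actin, reached 732 over 6493 nt. Sftpb, surfactant protein B, reached 508 over 12840 nt, and the carbonyl reductase gene Cbr2 495 over 8921 nt. The lysozyme gene Lyz2 stood at 418, the elongation factor gene Eef2 at 363, the stearoyl-CoA desaturase gene Scd1 at 347 and Cyp2f2, a cytochrome P450 of club cells, at 338. Levels from 155 to 212 were held by the Malat1 contig, by 2 contigs of Gsn and by those of Emp2, Inmt, Fasn, Crip2, Aqp1, Epas1 and Krt4.

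These contigs ran through introns and, for several, past the gene. The Sftpc contig held the whole gene, was 13.6% exon and 70.4% intron of annotated genes on its strand, and ran 6211 nt past the gene's annotated 3′ end. At most 1642 nt of that stretch lay outside annotated genes of the strand, so most of it, and of the intron share, lay within other annotated genes. Sftpd, surfactant protein D, ran 4660 nt past its end (10005 nt, level 16.4), and Sftpa1, surfactant protein A, 3931 nt (8693 nt, level 151). Cbr2 ran 6081 nt past its end, of which at most 4412 nt lay outside other genes of the strand, Clic3 4003 nt, Sftpb 2769 nt and Actb 2684 nt. By contrast the Eef2 contig covered its gene from 47 nt before the start to 86 nt after the end, and the Epas1 contig ended 125 nt past the gene.

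**Figure D4:**
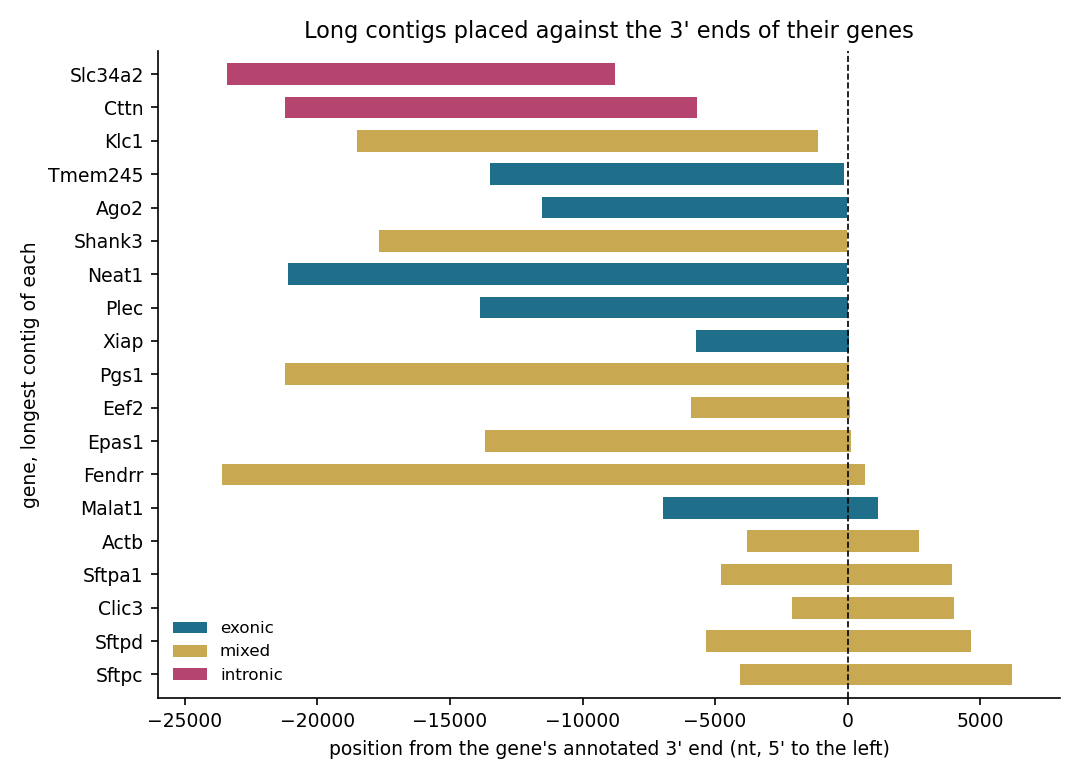
Extent of the longest contig of 19 genes (1 bar per gene) relative to the annotated 3′ end of the gene (horizontal, nt, dashed line at 0, 5′ to the left), coloured by class. The bars of Sftpc, Sftpd, Clic3 and Sftpa1 extend 6211, 4660, 4003 and 3931 nt to the right of the line, while those of Slc34a2 and Cttn stop 8778 and 5678 nt before it.

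Extension past the gene was counted over all tied contigs. Of the 1657 contigs with a named gene, 863 reached within 100 nt of the gene's 3′ end or further, 189 reached its start in the same way, and 101 covered it from end to end. The 3′ end was passed by at least 1000 nt in 171 contigs, by at least 3000 nt in 61 and by at least 5000 nt in 9. Of the 171, 145 held at least 1000 nt in no annotated gene of that strand, and their median level was 10.1. The contig of Hipk2, a nuclear kinase, ran 6878 nt past the end at level 14.5. That of Clec1a, a lectin receptor gene, ran 5951 nt past it at level 4.71, and that of Soga1 5358 nt at level 16. The start was passed by at least 1000 nt in 29 contigs. In 53 contigs at least 10% of the bases were exons of more than 1 coding gene each, with up to 4 genes in 1 contig. Genes that share a contig also share its reads at their borders, so their levels are uncertain there.

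Spliced reads were counted from the junction list. At least 1 intron lay wholly inside 1550 of the 1691 contigs (91.7%, 95% interval 90.2 to 92.9), 27232 introns in all. These were 6.09% of the 447240 junctions in the list and carried 19% of its reads. In the 1093 mixed contigs with such an intron, the most used one had a median of 3.21 times as many reads as the contig's mean depth, and it was at least as high as that depth in 866 (79.2%). In the Sftpc contig the most used intron had 243068 reads, 16.2 times the mean depth of 14993. In the Epas1 contig it had 13449, 4.93 times the depth of 2727. So these contigs held reads that cross an intron as a splice and reads that lie inside it.

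Junctions at the edges were counted in a much narrower window, so their share cannot be compared with the share of contigs holding an intron. A junction met 169 contigs (9.99%) within 10 nt of an edge with its other end outside the contig, 114 at the 5′ edge and 64 at the 3′ edge. Exonic contigs were met in this way in 17.2% of cases, mixed ones in 8.63% and intronic ones in 6.76%. No junction touched the edge of, or lay inside, 130 contigs.

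The 207 intronic contigs lay in 184 genes, and most stood below the highest exon-bearing contig of the same gene. Each was set against the highest other contig of its gene that had at least 10% exon bases and at least 200 nt. Taking the highest favours a low ratio, and the gene's other exon-bearing contigs were not compared. The median intronic level was 12.5% of that contig's level, 94 of the 207 were under 10%, and 9 were at or above 100%. The longest was in Atp6v1c2, a proton pump subunit (16998 nt, level 5.36, 33.9% of its exon contig). The Cttn contig, in the gene of the actin-binding protein cortactin, had 15528 nt at level 3.55 (15.8%). Slc34a2, the phosphate transporter of alveolar type 2 cells, had 14648 nt at level 26.2, which was 5.70% of its exon contig at 460. The water channel gene Aqp1 had 6316 nt of intronic contig at level 78.7, 47.1% of the level of its exon contig. The highest ratio was in Yjefn3, whose intronic contig of 5801 nt stood at 7.42 against 1.8 in its exon contig; the gene had 3.46 TPM in replicate 1 and 5.58 TPM in replicate 2.

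More than 1 long contig fell in 134 genes. Tns1, the focal adhesion protein tensin 1, had the most, 7, between 5433 and 15322 nt. Its levels ran from 1.85 in a contig of 11952 nt with no exon to 68.4 in the contig of 9181 nt at the gene's 3′ end. Tns1 stood at 692 TPM in replicate 1 and 994 TPM in replicate 2. Epas1, the hypoxia factor of lung endothelium, had 3, at levels 157, 48.1 and 1.87, the last with no exon bases. Lpcat1, which makes surfactant phospholipid, had 3, at levels 47.8, 18.8 and 4.44. Long contigs of 1 gene thus stood at unlike levels in Tns1, Epas1 and Lpcat1.

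Cell type genes were counted list by list, with no test. Of the 18 lung epithelium genes, which are alveolar but for Scgb1a1 and Cyp2f2, 10 had a long contig, 13 contigs with a median level of 36.5; beside those above they included Abca3, the lipid transporter of lamellar bodies (7224 nt, level 36.5), and Clic5 (5973 nt of 3′ UTR, level 43.2). Of the 20 endothelial genes, 9 had one, with a median level of 43.3 over 12 contigs. Tie1, an endothelial receptor kinase, had 11810 nt at level 38.5, and the angiotensin-converting enzyme gene Ace had contigs of 10477 and 7912 nt at levels 110 and 99.6. Egfl7 had 9427 nt at 93.6 and the TGF-beta co-receptor gene Eng 7644 nt at 99.3. Of the 20 mesenchyme and matrix genes, 5 had one: Col1a1, Col6a3, Eln, Npnt and Inmt. Of the 16 blood and immune genes, Lyz2 and Itgam had one. The median level of the detected genes was 514 TPM in the epithelium list and 241 TPM in the endothelial list. It was 158 TPM in the mesenchyme list and 20.5 TPM in the blood and immune list. Of all genes spanning at least 5000 nt, 37.6% at 100 to 1000 TPM and 14.9% at 10 to 100 TPM had a long contig. The lists were not matched to these genes on span or level, so the counts were not read as traits of a list. Bulk tissue cannot tell a cell type that is rare from one with little RNA per cell.

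Gene levels, read from the separate gene quantification, differed by contig class. Taken over contigs, the median gene level was 16.8 TPM for exonic, 61.9 TPM for mixed and 65.9 TPM for intronic contigs. A gene with several contigs of a class counts repeatedly here, unlike in the median that follows. Over all classes the 1480 tied genes with a deposited value had a median of 47.3 TPM (48.1 in replicate 1 and 45.7 in replicate 2), against 14.4 TPM for the 13855 genes that reached 1 TPM in both. They held 30.8% of counts in replicate 1 and 31.9% in replicate 2. Among genes spanning at least 5000 nt, a long contig was present in 3.10% of the 5137 at 1 to 10 TPM, 14.9% of the 6115 at 10 to 100 TPM, 37.6% of the 924 at 100 to 1000 TPM and 15 of the 28 above that. Among genes with an exon of at least 5000 nt the shares were 19.5% of 519, 40.2% of 410 and 58.3% of 36 in the first 3 of these classes. As depth sets both a gene's count and the absence of gaps, the 2 measures are not independent.

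A small share of these genes was 2-fold apart between the libraries. On counts scaled by TMM, a normalisation to a trimmed mean of ratios, and with a minimum mean count of 50, 26 of 1477 tied genes were 2-fold or more apart (1.76%), against 979 of 14708 genes (6.66%) by the same rule. Of the 26, 10 were higher in replicate 1, where the background was 4.45%, and 16 in replicate 2, where it was 2.2%. The median log2 ratio of replicate 2 over replicate 1 was 0.12 for tied genes and -0.0023 for all. The direction of the split depended on the scaling: by library size 14 were higher in replicate 1 and 8 in replicate 2, with DESeq2 size factors 10 and 17, and on log2(TPM + 0.1) 17 and 9. The background was not matched on level, and tied genes had a higher median (47.3 TPM) than all detected genes (14.4 TPM). With a minimum mean count of 10, 26 of 1478 tied genes and 10.1% of all 17334 genes were 2-fold apart. The lower share was therefore not read as a trait of the tied genes. With 2 libraries of 1 group these are differences between libraries only.

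The largest was Krt4, a keratin of squamous epithelium. Its contig of 6354 nt at level 155 (chromosome 15, 101748960 to 101755313, minus strand) was among the 20 highest of all and had a reproducibility score of 0, as 1687 of the 1691 contigs did. Krt4 had 106639 counts (1536 TPM) in replicate 1 and 16 counts (0.240 TPM) in replicate 2, a log2 ratio of −12.29. Muscle genes went the same way. Tnnt3, fast troponin T, had 56.0 TPM in replicate 1 and 3.56 TPM in replicate 2. The giant sarcomere protein gene Ttn had 5.63 and 0.670 TPM, Cmya5 3.47 and 0.830 TPM and Xirp1 2.36 and 0.580 TPM. All 19 listed squamous and muscle genes were 2-fold higher in replicate 1, against 4.45% of all genes by the same rule. The list was drawn up with earlier results of these data known, so this count is not independent support. The part of squamous and muscle RNA in the other differences was not tested, nor was that of the hemoglobin RNA in replicate 2.

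The largest difference the other way was in 2610507I01Rik, with 1.56 TPM in replicate 1 and 14.6 TPM in replicate 2 (log2 ratio 3.40). Dbp, a transcription factor driven by the circadian clock, had 40.1 TPM in replicate 1 and 126 TPM in replicate 2 (log2 ratio 2.06), and the clock gene Per1 had 32.6 and 73.1 TPM (1.42). Klf2, an endothelial factor induced by flow, had 128 and 317 TPM (1.53). Klf15 had 48.2 and 131 TPM (1.67), and Foxf1 172 and 378 TPM (1.36). The other 10 genes higher in replicate 2 were Zbtb16, Fgf2, Map3k6, Tspan4, Nr2f6, Tspan11, Muc5b, Yy1, Nt5dc2 and Tinagl1.

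**Figure D5:**
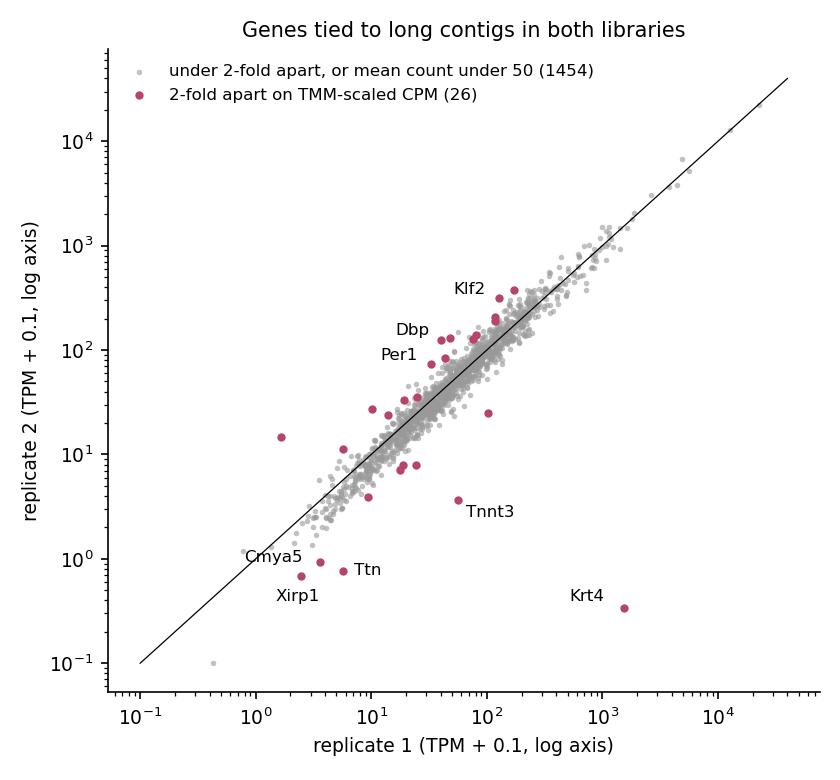
TPM + 0.1 in replicate 2 against replicate 1 (log axes) for the 1480 genes tied to a long contig and with a deposited value, 1 point per gene; the line marks equal values. The 26 genes that were 2-fold apart on TMM-scaled counts are in colour, with Krt4 at 1536 TPM in replicate 1 and 0.240 TPM in replicate 2.

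Long contigs were even between strands, with 850 on the plus strand (50.3%, 95% interval 47.9 to 52.6) and 841 on the minus strand. By chromosome they were uneven. Chromosome 11 held the most, 161, followed by chromosome 7 with 153 and chromosome 2 with 133; chromosome 18 held 31, the X chromosome 22 and the mitochondrial genome 1. Per 1000 contigs of the chromosome, chromosome 7 held 3.25, chromosome 17 3.08 and chromosome 3 1.07. On chromosome 15, picked out after the counts were seen, 32 lay on the plus strand and 62 on the minus strand. The split was 79 and 82 on chromosome 11 and 15 and 7 on the X chromosome. Strand bias of a chromosome was not tested. The Y chromosome had 338 contigs, none long; its longest was 1787 nt.

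The other strand was mostly quiet. A contig of the opposite strand overlapped 634 long contigs (37.5%), but at least 50% of the bases in only 44 (2.60%). Taking depth as even along each contig, the opposite strand had under 1% of the long contig's depth in 1485 cases and more than its depth in 18. In the 33 contigs at a level of 100 or more its depth was at most 1.92% of theirs. In 10 places long contigs of both strands overlapped, by up to 5595 nt in Cmtr1 and Ccdc167 at levels 5 and 1.74. Spsb3 and Eme2 overlapped by 4063 nt at levels 9.80 and 6.84, and Slc48a1 and Hdac7 by 3361 nt at levels 28.1 and 20.4.

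The 2 highest levels belonged to contigs without a named gene. One on chromosome 17 (39979941 to 39985775, plus strand, 5835 nt) stood at 3230, and one of 5687 nt on the mitochondrial genome, from 1031 to 6717, at 872. Neither could be placed by introns, so whether either lies in an annotated gene was not determined. Whether the first comes from a repeat such as ribosomal RNA was not tested. The 24 contigs outside annotated genes were low, with a median level of 2.68 and a highest level of 9.65. The longest of them, 10228 nt on the plus strand of chromosome 7 (26709747 to 26719974), stood at 8.22 and held 3 introns.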

How the data were processed

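Contigs and junctions came from the authors' deposited lists on mm9. The deposited level per contig is a signal that names no library; it was proportional to another deposited column, read here as summed read bases, divided by length. The score per contig is the authors' reproducibility value, and a lower score was taken here as more reproducible. The deposited junction counts are whole reads. The expected counts, TPM and FPKM per gene, and TPM per transcript, are the authors' values on mm10 with GENCODE M4, per the deposited file lists; aligner and quantifier: not given in the sources used here. Expected counts were rounded. Ratios used edgeR 4.0.16 (TMM, prior count 2), with DESeq2 1.42.0 size factors as an alternative, and were tested on simulated data, as was the match of introns. Named contigs were the 20 longest, the 20 of highest level, those nearest the minimum, the longest per chromosome and those of the listed genes; others were named after their values were seen. Members and lists were chosen with earlier results of these data known. Wilson intervals cover counting error only. Junction reads without molecular identifiers are not independent molecules.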

Additional observations from a re-analysis of the deposited data

How the results depend on the processing

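The contig list is not split by library, so its results could not be recomputed without a replicate. No paired analysis was possible because there is 1 group. The choice of length minimum moved most values: 4000, 6000, 8000 and 10000 nt gave 3241, 913, 304 and 101 contigs, 6.17%, 2.42%, 1.02% and 0.414% of contig bases, median levels of 6.50, 8.63, 10.2 and 11.2, and 3166, 900, 301 and 100 contigs tied to a gene. At 10000 nt chromosome 11 held 11.9% and chromosome 7 held 5.94% of the contigs. For each of these, a longer minimum leaves fewer contigs by construction. Joining contigs across gaps of 100 and 500 nt gave 4879 and 15041 long contigs, so length depends on how a gap is treated. The mean level weighted by length was 19.6. An edge junction was found in 3.25%, 8.52% and 12.3% of contigs within 0, 5 and 25 nt, and in 8.10% and 7.87% with at least 5 and 10 reads. An intron inside was found in 72.5% and 69.4% with at least 5 and 10 reads. Overlap from the other strand fell to 2.60% for at least 50% of the contig, and to 24.8% and 18.98% where the other contig had a reproducibility score of at most 0.1 and 0.01. In place of TPM, the median FPKM of tied genes was 36.1; without replicate 1 or without replicate 2 the median TPM was 45.7 or 48.1. The median log2 ratio of tied genes was -0.010 with library size scaling, where that of all genes was -0.14, and was -0.093 from log2(TPM + 0.1), where that of all genes was -0.21; it lay 0.11 to 0.14 above that of all genes under the 5 settings. Without the 2 contigs of highest level the long contigs held 20.3% of read bases. An alternative chosen after seeing the data, without exons of retained-intron, processed-transcript and decay transcripts, gave 277 exonic, 1071 mixed and 305 intronic contigs. By bases, exons then held 38.7% of the placed long contigs and introns 55.3%.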
